A study of Mus musculus with 35 samples.

Results

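The 10 genes described here encode cyclic nucleotide phosphodiesterases: Pde10a, Pde1a, Pde1b, Pde1c, Pde2a, Pde4b, Pde4d, Pde7b, Pde8b and Pde9a. They were taken by symbol from a table of 22099 genes measured by RNA sequencing in the striatum of 35 mice, and all 10 passed the filter on low counts that left 17639 genes for testing. The animals were female B6.Htt Q111/+ mice, which carry an expanded CAG tract in 1 allele of the huntingtin gene Htt and serve as a knock-in model of Huntington's disease, and their Htt +/+ littermates on the C57BL/6J background. From 2 to 10 months of age they received weekly intraperitoneal injections of an antisense oligonucleotide against Htt (Htt ASO, 50 mg/kg), a control ASO without that target (50 mg/kg) or saline (4 µL/g), and they were 299 to 304 days old at sacrifice. Each of the 6 groups held 6 mice, except Htt +/+ mice on control ASO, of which there were 5. Each library came from the right hemistriatum of 1 mouse, apart from 1 left hemistriatum in the Htt +/+ group on Htt ASO. The labels name 1 active oligonucleotide as ASO1, which is read here as the Htt ASO.

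Phosphodiesterases end cyclic nucleotide signals by hydrolysing cAMP, cGMP or both, and the families differ in substrate and in what switches them on. In the striatum, cAMP made by adenylyl cyclase in medium spiny neurons, the projection neurons that make up most of its cells, passes on dopamine and adenosine signals, while cGMP follows nitric oxide. Pde10a and Pde1b are known for high levels in medium spiny neurons.

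Total counts ran from 32200158 to 38641924 per mouse (median 35538941), and the 10 genes held 0.466% of all counts. Levels are given as CPM, the counts of a gene relative to the library's size, after scaling by the trimmed mean of M values (TMM), and differences as log2 fold changes from limma after voom with Benjamini-Hochberg adjusted p, where a gene is called at an adjusted p under 0.05. The Htt transcript, listed under the older symbol Hdh, averaged 88.3 ± 10.7 CPM (SD, n = 17) in Htt +/+ and 75.3 ± 8.37 CPM (n = 18) in Htt Q111/+ mice, a log2 difference of -0.23 (SE 0.055, limma adjusted p = 0.001). Between Htt ASO and control ASO it differed by -0.077 (SE 0.068, limma adjusted p = 0.967), so no lower Htt transcript was detectable in the striatum of mice given the Htt ASO. The markers of the labelled tissue were present: all 8 medium spiny neuron genes were measured and none was at 0, while 7 cortical excitatory neuron genes summed to between 8.76 and 76.5 CPM. A choroid plexus list of 6 genes reached a summed 1550 CPM in 1 Htt +/+ mouse, against a median of 43.3 in that genotype.

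Promoter sequences are shown for the 3 genes with the largest decrease by genotype and for the gene that rose, to show how unlike one another the regions before their starts are. Each is the 250 bases before the most 5′ start listed for the gene in a RefSeq promoter table (build GRCm38.p6), written 5′ to 3′ on the gene's strand, with Sp1 boxes (GGGCGG or CCGCCC) in capitals. They are chr17:8801495-8801744 (plus strand) for Pde10a, chr15:103502784-103503033 (plus strand) for Pde1b, chr10:20548329-20548578 (minus strand) for Pde7b and chr13:108653927-108654176 (plus strand) for Pde4d.
Pde10a: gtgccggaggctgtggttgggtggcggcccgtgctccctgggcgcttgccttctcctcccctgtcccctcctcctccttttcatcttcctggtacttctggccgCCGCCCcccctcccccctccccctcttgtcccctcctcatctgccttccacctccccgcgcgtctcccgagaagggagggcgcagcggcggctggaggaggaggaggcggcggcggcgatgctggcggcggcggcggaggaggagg
Pde1b: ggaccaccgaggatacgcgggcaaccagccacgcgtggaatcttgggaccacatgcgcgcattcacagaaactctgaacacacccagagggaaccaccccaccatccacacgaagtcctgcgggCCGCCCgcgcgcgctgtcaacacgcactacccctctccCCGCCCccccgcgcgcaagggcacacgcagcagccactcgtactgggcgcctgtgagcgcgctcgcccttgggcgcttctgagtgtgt
Pde7b: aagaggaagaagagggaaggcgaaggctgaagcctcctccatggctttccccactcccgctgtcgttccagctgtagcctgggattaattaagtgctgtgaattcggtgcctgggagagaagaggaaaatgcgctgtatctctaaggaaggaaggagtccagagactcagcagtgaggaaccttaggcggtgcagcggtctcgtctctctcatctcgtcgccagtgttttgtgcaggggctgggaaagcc
Pde4d: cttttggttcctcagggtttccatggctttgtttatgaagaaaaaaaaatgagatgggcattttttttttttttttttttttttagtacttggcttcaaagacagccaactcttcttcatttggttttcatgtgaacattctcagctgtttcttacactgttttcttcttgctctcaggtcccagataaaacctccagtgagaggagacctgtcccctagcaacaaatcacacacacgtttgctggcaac
In the GENCODE M21 annotation of the same build, the Pde1b window lies directly before the annotated gene (chr15:103503034-103530052), whereas the other 3 lie inside the annotated spans of Pde10a (chr17:8525372-8986648), Pde7b (chr10:20398004-20725078) and Pde4d (chr13:108449948-109953461). The Pde10a and Pde1b windows were 72.8% and 67.2% G or C with 21 and 26 CpG dinucleotides, and held 1 and 2 Sp1 boxes. The Pde7b window was 55.2% G or C with 10 CpG, the Pde4d window 38.8% with 1 CpG, and neither held an Sp1 box. Over the table's full length of 300 bases, which adds 50 bases after the start, 28 promoters were listed for 9 of the 10 genes. The full cAMP response element TGACGTCA was in 0 of these 28 promoters and in 1.79% of all 32851, its core TGACG or CGTCA in 4 of 28 and 20.8%, the Sp1 box in 6 of 28 and 35.7%, and TATAAA or TTTATA in 3 of 28 and 13.6%. The core lies within the full element, so a full match would count under both. Some of the 28 promoters overlap, and those of Pde8b counted the same Sp1 boxes more than once. By gene, the core was in promoters of 4 genes, the Sp1 box in those of 4 and TATAAA or TTTATA in those of 2.

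By genotype over all treatments, 8 of the 10 phosphodiesterase genes passed the test: 7 were lower and 1 was higher in Htt Q111/+ mice. Of all 17639 genes tested, 39.8% passed, 18% lower and 21.8% higher. The median log2 difference was -0.15 over the 10 genes and 0.0037 over all genes tested. The 10 genes were chosen with earlier results of these data known, so their share is not independent of those results. Of the 9 other cyclic nucleotide phosphodiesterase genes tested, 4 passed, 1 lower and 3 higher. Scaling by library totals in place of TMM changed the split over all genes, from 45.3% to 27.9% of calls lower, while the 10 genes again gave 7 lower and 1 higher. The tissue was sequenced whole, so fewer cells of a type and less RNA per cell cannot be told apart in any of these differences. Markers moved with genotype too: of the medium spiny neuron list 8 of 8 genes fell, with a summed level of 5350 to 6620 CPM in Htt +/+ and 4420 to 5210 CPM in Htt Q111/+ mice, and of the indirect pathway neuron list 4 of 5 fell (1890 to 2410 against 1100 to 1390 CPM). Of the direct pathway neuron list 2 genes fell and 3 rose, and no list gene was at 0 in every mouse. Of the other lists, 6 of 8 endothelial and mural, 4 of 7 microglia, 3 of 7 oligodendrocyte, 2 of 7 astrocyte, 1 of 8 interneuron and 1 of 6 choroid plexus genes were lower and none higher, 1 thalamic or septal gene was lower and 1 higher of 5 tested, and limma called 0 of 7 cortical excitatory neuron genes. Their part in the differences was not tested.

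**Figure D1:**
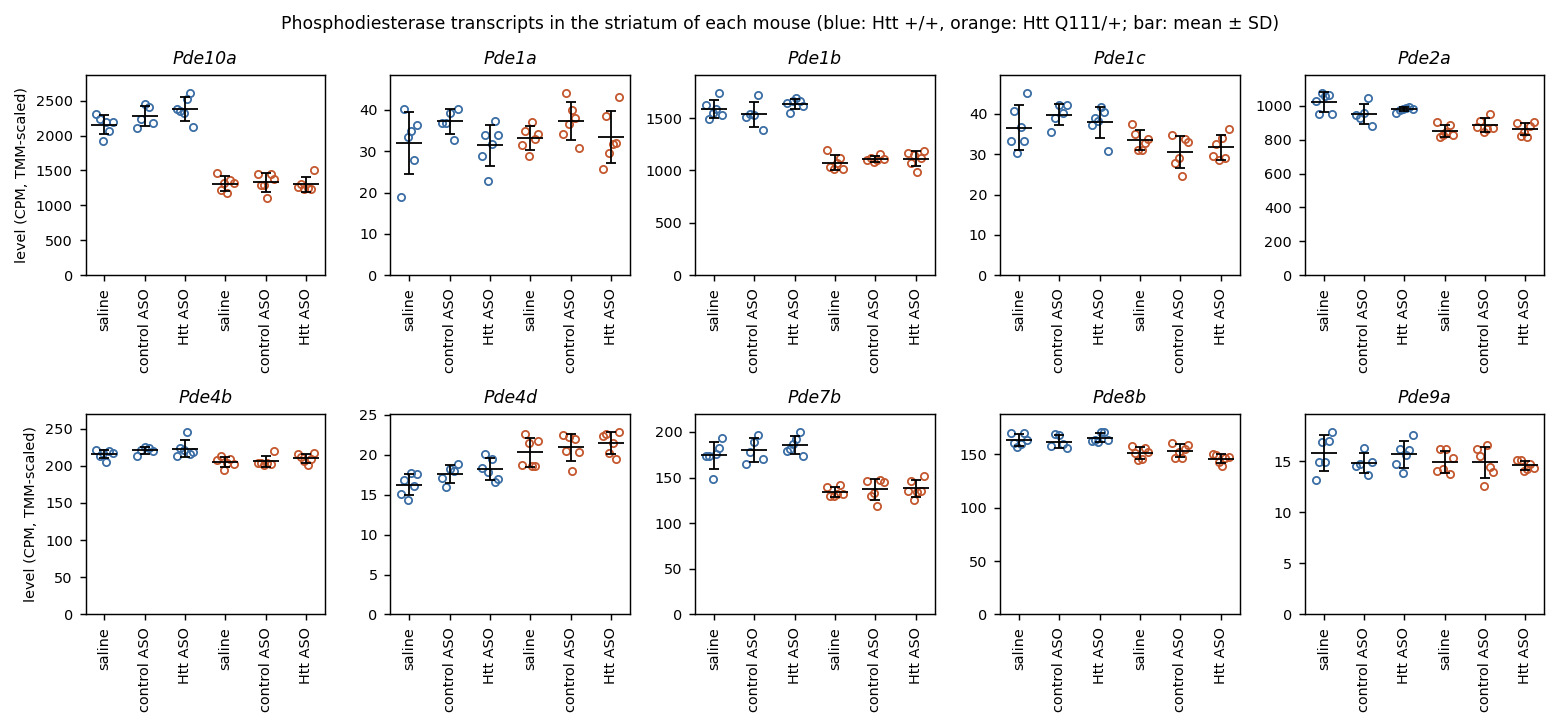
Level of each phosphodiesterase transcript (CPM after TMM scaling, each axis from 0) in every mouse, by treatment, with Htt +/+ mice in blue and Htt Q111/+ mice in orange. Circles are mice and bars give the mean ± SD of a group. Pde10a and Pde1b separate the genotypes with no overlap, whereas Pde1a and Pde9a overlap throughout.

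Among the enzymes that hydrolyse both cAMP and cGMP, Pde10a showed the largest decrease of the 10 genes. In Htt +/+ mice Pde10a measured 1928 to 2315 CPM on saline (median 2196, n = 6), 2113, 2186, 2245, 2414 and 2456 CPM on control ASO, and 2126 to 2614 CPM on Htt ASO (median 2361, n = 6). In Htt Q111/+ mice it measured 1171 to 1467 CPM on saline (median 1318), 1100 to 1453 CPM on control ASO (median 1339) and 1233 to 1513 CPM on Htt ASO (median 1260), with 6 mice in each. All 18 Htt Q111/+ mice lay below the lowest Htt +/+ mouse. Mean Pde10a was 2274 ± 174 CPM (SD, n = 17) in Htt +/+ and 1314 ± 109 CPM (n = 18) in Htt Q111/+ mice, a log2 difference of -0.79 (SE 0.0366, limma adjusted p = 4.45e-18), which leaves 57.7% of the Htt +/+ level (95% interval 54.8 to 60.8).

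Pde1b, a phosphodiesterase that calcium and calmodulin switch on, also fell without overlap. It measured 1493 to 1741 CPM on saline (median 1569), 1383, 1507, 1529, 1542 and 1720 CPM on control ASO and 1552 to 1693 CPM on Htt ASO (median 1649) in Htt +/+ mice. The Htt Q111/+ mice measured 1011 to 1191 CPM on saline (median 1055), 1077 to 1161 CPM on control ASO (median 1106) and 981 to 1186 CPM on Htt ASO (median 1134). The lowest Htt +/+ mouse, at 1383 CPM, was above the highest Htt Q111/+ mouse, at 1191 CPM. The log2 difference was -0.53 (SE 0.0265, limma adjusted p = 3.62e-17), leaving 69.3% (66.7 to 71.9). Pde10a and Pde1b were the only 2 of the 10 genes whose ranges over 17 and 18 mice did not overlap, which was so for 2.21% of all genes tested.

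The other calcium and calmodulin dependent genes, Pde1c and Pde1a, moved less. Pde1c ranged from 30.3 to 45.3 CPM in Htt +/+ mice (median 38.9) and from 24.5 to 37.5 CPM in Htt Q111/+ mice (median 32.7), and 6 of 18 Htt Q111/+ mice lay below the lowest Htt +/+ mouse. Its log2 difference was -0.25 (SE 0.0508, limma adjusted p = 0.000118), or 83.8% of the Htt +/+ level. Pde1a ranged from 19.0 to 40.3 CPM (median 33.9) and from 25.7 to 44.2 CPM (median 34.2), and its difference did not pass the test (log2 0.056, 95% interval -0.10 to 0.21, limma adjusted p = 0.604). Pde1a had the widest spread between mice, with a coefficient of variation of 17.7% in Htt +/+ mice.

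Pde2a, which cGMP binding stimulates to hydrolyse cAMP, fell by a smaller amount. It ranged from 881 to 1078 CPM in Htt +/+ mice (median 980.8) and from 816.8 to 955 CPM in Htt Q111/+ mice (median 864.5). The ranges overlapped, although 11 of 18 Htt Q111/+ mice lay below the lowest Htt +/+ mouse. The log2 difference was -0.18 (SE 0.022, limma adjusted p = 2.42e-08), leaving 88% (85.3 to 90.8).

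Of the cAMP-specific enzymes, Pde7b fell most. It measured 149 to 193 CPM on saline (median 175), 165, 170, 178, 190 and 197 CPM on control ASO and 173 to 199.9 CPM on Htt ASO (median 184) in Htt +/+ mice. In Htt Q111/+ mice it measured 129.7 to 142 CPM on saline (median 132), 119 to 148 CPM on control ASO (median 139) and 126 to 152 CPM on Htt ASO (median 135). A single Htt +/+ mouse on saline, at 149 CPM, reached into the Htt Q111/+ range, and 17 of 18 Htt Q111/+ mice lay below it. The log2 difference was -0.40 (SE 0.0325, limma adjusted p = 5.04e-12), leaving 75.9% (72.5 to 79.4).

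Pde8b and Pde4b, the first a high-affinity cAMP phosphodiesterase and the second of the rolipram-sensitive family, fell to 91.9% and 94.2% of the Htt +/+ level. Pde8b ranged from 155.5 to 170.7 CPM in Htt +/+ mice (median 162.9) and from 139 to 160.3 CPM in Htt Q111/+ mice (median 149.6), a log2 difference of -0.12 (SE 0.0172, limma adjusted p = 4.98e-07). Pde4b ranged from 205.5 to 245 CPM (median 219.8) and from 194.7 to 220.4 CPM (median 204.9), a log2 difference of -0.086 (SE 0.0172, limma adjusted p = 0.000117), which was -0.048 (limma adjusted p = 0.0183) with library totals in place of TMM. These were small differences between tight groups: the coefficient of variation in Htt +/+ mice was 3.1% for Pde8b and 3.72% for Pde4b.

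Pde4d, of the same rolipram-sensitive family as Pde4b, was the gene that rose. It measured 14.4 to 17.7 CPM on saline (median 16.4), 16.01, 17.05, 17.96, 18.25 and 18.9 CPM on control ASO and 16.6 to 20.1 CPM on Htt ASO (median 18.1) in Htt +/+ mice. In Htt Q111/+ mice it measured 18.6 to 22.6 CPM on saline (median 20.1), 17.9 to 22.5 CPM on control ASO (median 21.2) and 19.5 to 22.8 CPM on Htt ASO (median 21.9). The ranges overlapped, with 13 of 18 Htt Q111/+ mice above the highest Htt +/+ mouse. The log2 difference was 0.27 (SE 0.0378, limma adjusted p = 5.49e-07), which puts the level at 120% of Htt +/+ (114 to 127).

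Pde9a, the cGMP-specific member, ranged from 13.1 to 17.9 CPM in Htt +/+ mice (median 14.9) and from 12.6 to 16.6 CPM in Htt Q111/+ mice (median 14.6). The difference did not pass the test (log2 -0.060, 95% interval -0.14 to 0.021, limma adjusted p = 0.245).

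The differences in size between the 10 genes can be read without any scaling between mice as log2 ratios within a mouse. The log2 ratio of Pde10a to Pde7b averaged 3.66 (3.5 to 3.74) in Htt +/+ and 3.27 (3.15 to 3.39) in Htt Q111/+ mice, with no overlap, so Pde10a fell more than Pde7b. Against Pde1b the ratio averaged 0.52 and 0.26, and the ranges of 0.25 to 0.68 and 0.0015 to 0.40 overlapped. For the other 7 genes the ranges of the ratio of Pde10a to the gene did not overlap either. The difference ran from -0.54 for Pde1c to -1.06 for Pde4d. Pde10a alone separates the genotypes, so its ratio to a gene that changed little separates them too, as with Pde1a and Pde9a. How many of all genes would do so was not counted.

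The genotype difference was then taken within each treatment. On saline 6 of the 10 genes passed, 5 lower and 1 higher, against 17.4% of all genes tested; on control ASO 6 passed, 5 lower and 1 higher, against 18.5%; and on Htt ASO 8 passed, 7 lower and 1 higher, against 21.2%. Pde10a, Pde1b, Pde7b and Pde4d passed in every treatment. For Pde10a the log2 difference was -0.72 (SE 0.0623) on saline, -0.78 (SE 0.0653) on control ASO and -0.87 (SE 0.0623) on Htt ASO. Pde2a differed by -0.26 on saline, -0.10 on control ASO (limma adjusted p = 0.0622) and -0.19 on Htt ASO. Pde8b missed the threshold on control ASO (log2 -0.078, limma adjusted p = 0.0744), Pde4b on saline (log2 -0.072, limma adjusted p = 0.0921), and Pde1c on saline (log2 -0.12, limma adjusted p = 0.414). A gene past the threshold in 1 treatment and not in another is not thereby shown to differ between treatments, and the interactions of genotype with treatment called 0 of the 10 genes. The sample titles carry a number after the letter L whose meaning the labels do not give. Within each of the 5 L numbers that held both genotypes, the 7 genes that fell were lower and Pde4d was higher in Htt Q111/+ mice, with Pde10a between -0.84 and -0.62 on the log2 scale.

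**Figure D2:**
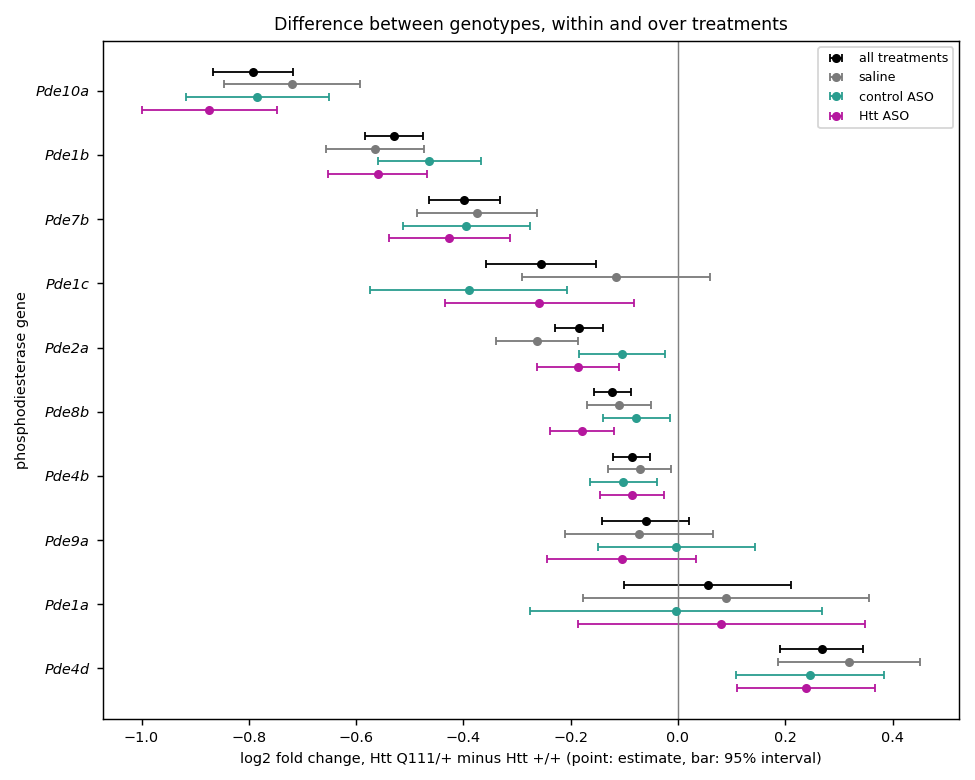
Log2 fold change of Htt Q111/+ against Htt +/+ mice for each gene, over all treatments and within saline, control ASO and Htt ASO. Points are limma estimates and bars 95% intervals. Pde10a lies lowest in every treatment and Pde4d lies above 0 in every treatment. The intervals of Pde1a and Pde9a cross 0 throughout, and that of Pde1c crosses 0 on saline (-0.291 to 0.0597).

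None of the 10 genes was called by limma for Htt ASO against control ASO over both genotypes, where 0.935% of all genes tested passed, within Htt Q111/+ mice (0.357%) or within Htt +/+ mice (0.295%). None was called for Htt ASO against saline over both genotypes (1.47%), within Htt Q111/+ mice (0.556%) or within Htt +/+ mice (0.726%). Control ASO against saline and the 3 interactions of genotype with treatment called 0 of the 10 genes and 0% of all genes tested. edgeR and DESeq2 likewise called 0 of the 10 genes in each of these 12 comparisons. Comparisons that share a treatment group are not independent of one another. At an unadjusted p under 0.05, limma counted between 0 and 2 of the 10 genes in a comparison. Of all 17639 genes tested it counted between 512 and 2080.

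For Pde10a the log2 difference of Htt ASO minus control ASO was -0.027 (95% interval -0.15 to 0.10) in Htt Q111/+ mice and 0.063 (-0.069 to 0.20) in Htt +/+ mice. For Pde1b it was -0.0020 (-0.094 to 0.090) in Htt Q111/+ mice and 0.094 (-0.0017 to 0.19) in Htt +/+ mice. For Pde7b it was 0.012 (-0.10 to 0.13) in Htt Q111/+ mice, and for Pde4d it was 0.038 (-0.088 to 0.16). For each of these 4 genes the interval in Htt Q111/+ mice lies short of the size of that gene's genotype difference in the opposite direction. This was also so for Pde1c, Pde2a and Pde8b. It was not so for Pde4b, whose interval of -0.029 to 0.090 reached the size of its genotype difference (-0.086).

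Pde1a had the largest treatment difference of the 10 genes between the ASO groups. It averaged 37.2 ± 2.94 CPM (SD, n = 5) on control ASO and 31.4 ± 5.06 CPM (n = 6) on Htt ASO in Htt +/+ mice, and 37.3 ± 4.6 and 33.4 ± 6.34 CPM (n = 6 each) in Htt Q111/+ mice. Over both genotypes the log2 difference was -0.21 (95% interval -0.40 to -0.020, limma adjusted p = 0.678). Against saline the control ASO group stood 0.21 higher (limma adjusted p = 0.615), and both comparisons share the control ASO mice. Pde4d stood 0.12 higher on Htt ASO than on saline (95% interval 0.030 to 0.22, limma adjusted p = 0.297). Pde8b on Htt ASO against control ASO differed by -0.071 in Htt Q111/+ and by 0.030 in Htt +/+ mice, and the interaction, the first minus the second, did not pass (-0.10, limma adjusted p = 0.999). The same kind of interaction for control ASO against saline was 0.16 for Pde2a and -0.27 for Pde1c, with a limma adjusted p of 0.735 for each.

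**Figure D3:**
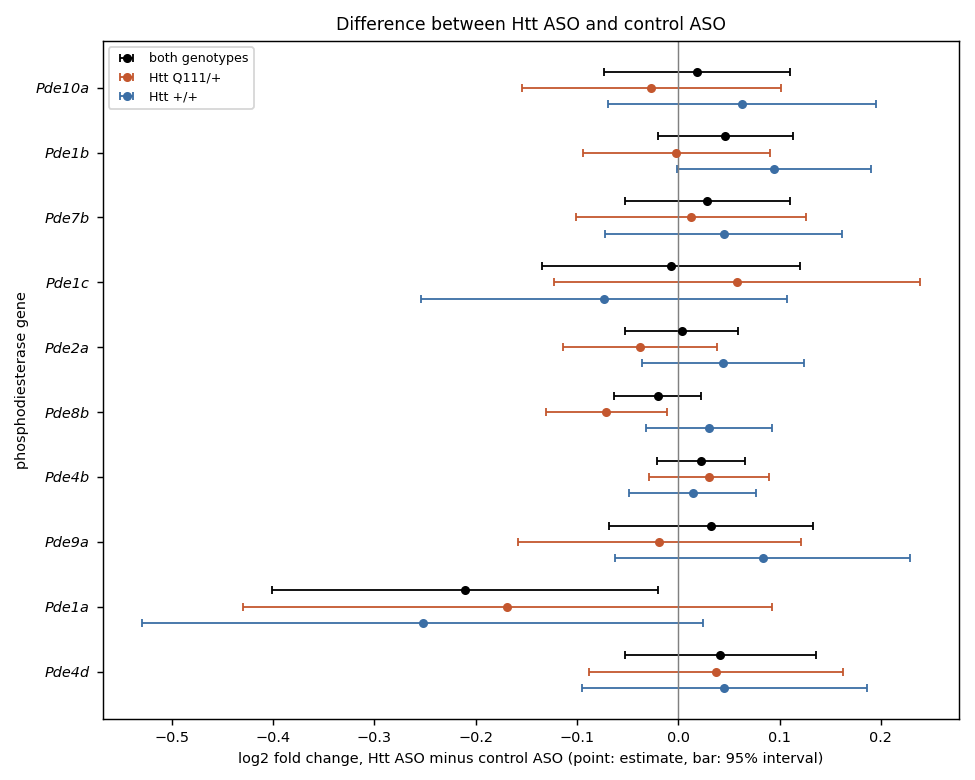
Log2 fold change of Htt ASO against control ASO for each gene, over both genotypes and within each genotype. Points are limma estimates and bars 95% intervals. The intervals over both genotypes include 0 for every gene but Pde1a (-0.40 to -0.020), whose adjusted p was 0.678.

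To compare levels between genes, CPM was divided by the kilobases of annotated exon, since a longer transcript yields more reads. In Htt +/+ mice Pde1b stood highest at 295 ± 17.1 CPM per kilobase (SD, n = 17), followed by Pde10a at 177 ± 13.6 and Pde2a at 161 ± 8.64. The ranges of Pde10a (150 to 203) and Pde2a (143 to 175) overlapped. Pde8b (27.8), Pde4b (20.8) and Pde7b (14.5) formed a middle tier without overlap between neighbours, and Pde1a (5.54), Pde9a (4.37), Pde1c (1.89) and Pde4d (1.45) the lowest. Of these neighbours in the lowest tier the ranges overlapped between Pde1a and Pde9a and between Pde1c and Pde4d. When the longest transcript gave the length, the level moved by over 1.5 times for 6 genes: Pde10a to 293, Pde4b to 51.1, Pde7b to 33.6, Pde9a to 7.4, Pde1c to 4.34 and Pde4d to 4.13 CPM per kilobase. Pde4b then stood above Pde8b (38.6), and the ranges of Pde8b and Pde7b overlapped.

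In Htt Q111/+ mice the order changed in 2 places. Pde2a, at 141 ± 6.25 CPM per kilobase (133 to 155, n = 18), stood above Pde10a, at 102 ± 8.47 (85.6 to 118), with no overlap, although with the length of the longest annotated transcript the ranges of 194 to 226 and 142 to 195 overlapped. Pde4d, at 1.74 ± 0.136, stood above Pde1c, at 1.59 ± 0.166, although the ranges of 1.49 to 1.9 and 1.22 to 1.87 overlapped. Both changes of order were also present with that length. The 10 genes together gave 645 to 754 CPM per kilobase in the 17 Htt +/+ mice and 479 to 558 in the 18 Htt Q111/+ mice. Of that sum Pde10a made up 25% in Htt +/+ and 19.8% in Htt Q111/+ mice, Pde1b 41.6% and 39.4%, and Pde2a 22.7% and 27.3%. The sum and these shares were computed only with the length of all annotated exon, not with the longest transcript.

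**Figure D4:**
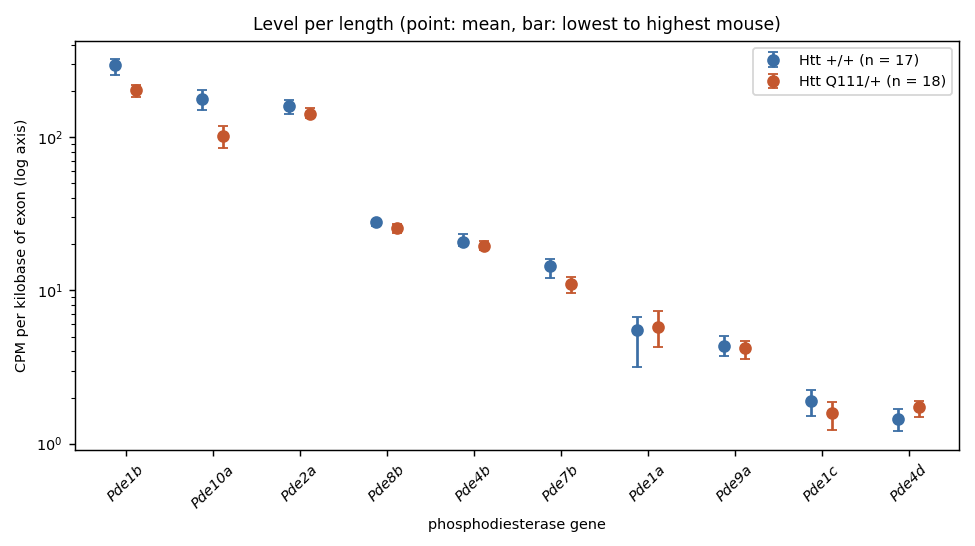
Level of each gene in CPM per kilobase of annotated exon (log axis), with genes ordered by their mean in Htt +/+ mice. Points are means and bars run from the lowest to the highest mouse. Pde10a stands above Pde2a in Htt +/+ mice (177 against 161) and below it in Htt Q111/+ mice (102 against 141).

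Among mice of the same group, some of the 10 genes varied together. With group means removed from log2 CPM, 10 of the 45 pairs passed a two-sided permutation test within groups (100000 resamples, Benjamini-Hochberg adjusted over 45 pairs), and all 10 correlations were positive. Pde10a and Pde7b gave Pearson r = 0.815 and Spearman rho = 0.804 over 35 mice (adjusted permutation p = 0.00011 and 0.00015, the raw p of 1e-05 being the smallest these resamples can give). Without the 2 mice farthest from the median of Pde10a, r was 0.764. Pde1b and Pde2a gave r = 0.807 and rho = 0.797 (adjusted permutation p = 0.00011 and 0.00015), and 0.770 without 2 mice. Pde1c and Pde7b gave r = 0.767 and rho = 0.686 (adjusted permutation p = 0.00011 and 0.00056), and 0.720 without 2 mice. Pde1a and Pde9a, neither of which differed by genotype past the threshold, gave r = 0.503 and rho = 0.468 (adjusted permutation p = 0.033 and 0.039). Without the 2 mice farthest from the median of Pde1a, r was 0.270, so its size depended on those mice. The 3 lowest were Pde10a with Pde9a (r = -0.361), Pde1b with Pde4d (r = -0.270) and Pde1a with Pde1b (r = -0.250), with adjusted permutation p of 0.15, 0.31 and 0.34. The points share their library and its scaling. When the trend on GC content and length was first taken out of every library, 17 pairs passed, and the 3 highest pairs above gave r of 0.746, 0.798 and 0.660. Pde1a with Pde9a then gave r = 0.505 (adjusted permutation p = 0.018). Pairs that were low before the correction were then high: Pde10a with Pde1b went from r = 0.359 to 0.653 (adjusted permutation p = 0.12 and 0.0009), Pde10a with Pde2a from 0.294 to 0.613 (0.25 and 0.0017) and Pde1b with Pde7b from 0.396 to 0.647 (0.1 and 0.0009). Pde1c with Pde4d went the other way, from 0.589 to 0.402 (adjusted permutation p = 0.0046 and 0.076). Which genes varied together therefore depended on this correction, and the cause was not tested.

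**Figure D5:**
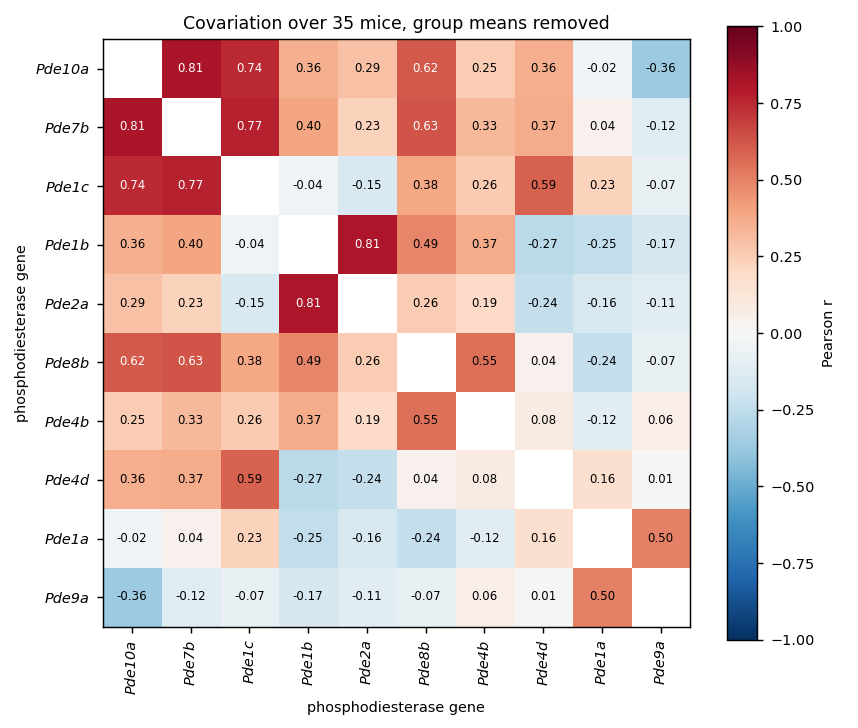
Pearson r between the log2 CPM of each pair of the 10 genes over 35 mice with group means removed (red positive, blue negative, value in each cell). Without a GC and length correction, the pairs among Pde10a, Pde7b and Pde1c lie from 0.745 to 0.815 and Pde1b with Pde2a lies at 0.807. Pde10a with Pde1b lies at 0.359 here and at 0.653 after that correction.

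The genes whose within-group pattern was most like each member, of 15089 genes averaging 1 CPM or more, are given as a description over 35 mice. No GC and length correction was applied to them. For Pde10a they were Atp2b1, a plasma membrane calcium pump (r = 0.920), and Akap9, a protein kinase A anchoring protein (r = 0.893), and Atp2b1 (r = 0.854) was also among those of Pde1c, after Alg10b (r = 0.858). For Pde1b they were Adcy5, the main adenylyl cyclase of the striatum (r = 0.900), and Camk2b, a calcium and calmodulin dependent kinase (r = 0.886). For Pde2a they were Smpd3 (r = 0.889) and Camkv (r = 0.883), and for Pde7b Zswim6 (r = 0.871) and the transcription factor Foxp1 (r = 0.863). For Pde8b they were Drd1a, the D1 dopamine receptor (r = 0.876), and Zfp365 (r = 0.825). For Pde1a they were Gabra5, a GABA-A receptor subunit (r = 0.878), and AW551984 (r = 0.820). For Pde4b, Pde4d and Pde9a the values were lower: Mat2b (r = 0.709) and Nono (r = 0.676), BC099422 (r = 0.769) and Gfpt1 (r = 0.760), and Galntl1 (r = 0.683) and Cd200 (r = 0.657).

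Set against the summed markers of cell types in the same way, Pde1b (r = 0.876) and Pde2a (r = 0.800) varied with the medium spiny neuron list, whereas Pde10a (r = 0.348) and Pde7b (r = 0.371) did so less. Pde8b varied most with the direct pathway neuron list (r = 0.864). Values below -0.5 were those of Pde8b with the interneuron list (r = -0.630), Pde1a with the oligodendrocyte list (r = -0.604), Pde4b with the microglia list (r = -0.582), Pde1b with the interneuron list (r = -0.516) and Pde7b with the microglia list (r = -0.502). These are descriptions over 35 mice, in which GC content differs between the genes: 42.1% for Pde7b, 42.9% for Pde1c and 48.3% for Pde10a, against 54.1% for Pde1b and 55.5% for Pde2a. They were computed without the GC and length correction, which raised r between Pde10a and Pde1b from 0.359 to 0.653. Whether the values against the markers would change with it was not tested.

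Of 14 other cyclic nucleotide phosphodiesterase genes, 9 passed the filter and 4 of these differed by genotype, against 39.8% of all genes tested. Pde8a, the paralog of Pde8b, fell from 25.6 ± 1.46 CPM (SD, n = 17) to 22.1 ± 1.54 CPM (n = 18), a log2 difference of -0.21 (SE 0.0287, limma adjusted p = 2.87e-07). Pde4c rose from 4 ± 0.598 to 4.56 ± 0.557 CPM (log2 0.20, limma adjusted p = 0.0123). Pde3b, which cGMP inhibits, and Pde6d, a lipid-binding subunit, rose by 0.075 and 0.063 on the log2 scale (limma adjusted p = 0.0376 and 0.0355), and the count of 4 was 2 without the L7 mice (6 mice, all Htt Q111/+), with the L number as a covariate, or without any 1 of 7 single mice. Pde6a, Pde6b, Pde6c, Pde6g and Pde6h, which serve phototransduction, were below the filter.

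Of the 46 genes in lists of cyclases, effectors, channels and exporters, 44 were listed, 39 were tested and 16 passed by genotype, 8 lower and 8 higher, a share close to the 39.8% of all genes tested. Of the 9 adenylyl cyclases tested 4 passed, a share near that of all genes tested, and all 4 were lower. Adcy5 fell from 1250 ± 81.6 to 837 ± 56.4 CPM, a log2 difference of -0.57 (SE 0.0315, limma adjusted p = 2.85e-16), and its ranges of 1060 to 1390 and 759 to 943 CPM did not overlap. Adcy9 fell by 0.24 on the log2 scale. Of the guanylyl cyclases 2 were lower and 2 higher: Gucy1a2, a subunit of the nitric oxide receptor, fell by 0.365 on the log2 scale, and Npr2, the receptor for C-type natriuretic peptide, rose from 34.6 ± 1.78 to 44.9 ± 2.24 CPM (log2 0.37, SE 0.0238, limma adjusted p = 1.25e-14). Of the 13 effectors tested 5 passed, also near the share of all genes tested, and all 5 were higher. Among them was Prkar1b, a regulatory subunit of protein kinase A (log2 0.24, limma adjusted p = 4.38e-13). Whether the cyclases or effectors leaned to 1 direction was not tested. Hcn3, a cyclic nucleotide gated channel, rose by 0.37 on the log2 scale (limma adjusted p = 1.28e-07), and both exporters on the list were lower.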

How the data were processed

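RNA from 35 hemistriata was made into stranded mRNA libraries. The authors aligned reads to a mouse transcriptome (mm9, MGSCv37) with Bowtie 0.12.9 and deposited each gene's expected count as estimated by RSEM 1.1.18. Such counts need not be whole, and 55.6% were exactly whole; a read shared by similar transcripts is divided between them, which may touch paralogs within a phosphodiesterase family. Gene symbols are those of the table.

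Groups came from the labels, and replicate numbers, given in accession order, only name mice. Counts were filtered by filterByExpr (minimum count 10, minimum total 15), and those of the genes kept were scaled by TMM (edgeR 4.0.16). They were fitted with limma 3.58.1 after voom in R 4.3.3, with 1 mean per group. The fit had 29 residual degrees of freedom and Benjamini-Hochberg adjustment over 17639 genes. P-values measure the spread between mice. The fit was repeated with DESeq2 1.42.0 and with the quasi-likelihood test of edgeR, on counts rounded to whole numbers, and with other scalings and filters, the L number, left-out mice, and a GC and length correction chosen after seeing the data. The limma, edgeR and DESeq2 fits of genotype over all treatments were tested on simulated data, and the other steps were not. Those data changed few genes, in equal numbers up and down, so they did not check the scaling when as many genes differ as here. Log2 CPM used a prior count of 2. Permutations were run in numpy 2.4.6, with ranks and adjusted p from scipy 1.17.1. GENCODE M21 (GRCm38) gave the exon lengths and, for 84.1% of tested genes, a GC content. Intervals are 95% intervals of the fit.

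The 10 genes, the pathway and marker lists and the tests were chosen with earlier results of these data known. The text names the 10 genes and Htt, up to 3 genes each way with the largest genotype difference among called genes of at least 1 CPM in the other phosphodiesterases and in the pathway lists, the 2 genes most like each member, and the 3 highest and 3 lowest pairs. Pde1a with Pde9a, the pairs named for their change with the GC and length correction and the inverse marker values were named after their values were seen.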

Additional observations from a re-analysis of the deposited data

Results flagged for a closer look

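In 60 sets of mice (10 genes in 6 groups), the highest or lowest mouse was set against the others by Dixon's test, which chance passes in about 1 set in 20, and 3 mice stood apart. In Htt Q111/+ mice on Htt ASO, replicate 6 had 1513 CPM of Pde10a, while the other 5 mice lay between 1233 and 1313 CPM. In Htt Q111/+ mice on control ASO, replicate 6 had 220.4 CPM of Pde4b, against 201.3 to 203.8 CPM in the other 5. In Htt +/+ mice on Htt ASO, replicate 4 had 245.2 CPM of Pde4b, against 213.6 to 223.9 CPM in the other 5.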

How the results depend on the processing

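Over all treatments, the genotype test gave 7 of the 10 genes lower and 1 higher as reported and under each of 11 alternatives, and leaving out each of the 35 mice in turn left the count at 8. The counts for the 12 treatment and interaction comparisons stayed at 0 in all of these. No paired analysis was possible because the labels carry no replicate numbers; the L number, which groups share, was fitted as a covariate instead. The count of other phosphodiesterases called by genotype, 4, was 2 with the L number as a covariate and without the L7 mice, and ran from 2 to 5 when single mice were left out. It was 2 without Htt +/+ Htt ASO replicate 1 or 4, control ASO replicate 4, saline replicate 2 or 4, or Htt Q111/+ saline replicate 2 or 6. The count of pairs that varied together, 10, was 17 after the GC and length correction.

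Within a treatment, calls of the smaller differences depended on the setting. Without TMM scaling, Pde8b on saline (adjusted p = 0.0508), Pde4b on control ASO (0.0594) and Pde1c and Pde4b on Htt ASO (0.0747 and 0.438) were lost. Pde1c on Htt ASO was also lost with the L number (0.115), without the L7 mice (0.0621) and without 6 single mice: Htt Q111/+ Htt ASO replicates 1, 3 and 5 and Htt +/+ Htt ASO replicates 2, 4 and 5, with log2 differences of -0.25 to -0.229. Pde4b on Htt ASO was lost with the L number (0.108), after the GC and length correction (0.194) and without Htt +/+ replicates 2 and 4 or Htt Q111/+ replicates 3, 4 and 5 of that treatment (-0.085 to -0.0623). Pde2a on control ASO passed with DESeq2 (0.0306), median-of-ratios factors (0.0474), at least 1 CPM (0.0374) and the L number (0.038), and Pde8b passed with DESeq2 (0.0491). Without the L7 mice, which are all Htt Q111/+, Pde8b on saline (0.0528) and Pde4b on control ASO (0.11) were lost, though their log2 differences moved little (-0.1105 to -0.109 and -0.1018 to -0.0924), as did that of Pde1c on Htt ASO (-0.2587 to -0.241). Pde4b on control ASO was also lost after the GC and length correction (0.24) and without Htt +/+ control ASO replicate 3 (0.0502). Single mice whose absence brought a gene past the threshold on control ASO were Htt +/+ saline replicates 2 and 5, Htt +/+ control ASO replicate 5 and Htt Q111/+ control ASO replicate 5 for Pde2a (-0.135 to -0.109), and Htt +/+ control ASO replicate 5 and Htt Q111/+ control ASO replicate 1 for Pde8b (-0.0947 and -0.0908). On saline this was so of Htt +/+ Htt ASO replicate 4 for Pde4b (-0.074).

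Differences near 0 changed sign, none past the threshold either way. Pde1a by genotype on control ASO was 0.0031 with edgeR, 0.0209 with library totals, 0.0118 with the L number, 0.0305 after the GC and length correction, and -0.0522 to 0.0492 without single mice. Pde9a by genotype on control ASO was 0.00406 with edgeR, 0.0211 with library totals, and -0.0339 to 0.0459 without single mice. Pde1a by genotype on saline was -0.00695 with the L number and -0.0497 to 0.162 without single mice, and on Htt ASO -0.00634 to 0.15. Htt ASO against control ASO gave Pde1c 0.0222 without the left hemistriatum mouse, 0.0208 after the GC and length correction and -0.0371 to 0.0222 without single mice. It gave Pde2a -0.00598 after that correction and -0.00924 to 0.0204 without single mice, and Pde10a -0.00854 to 0.035. With the longest transcript as length, Pde4b (51.1 CPM per kilobase in Htt +/+ mice) stood above Pde8b (38.6). The cause of these changes was not tested. Pde1a had the widest interval of the 10 genes, so a difference as small as that of Pde4b was not detectable for it.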
